A study of Mus musculus with 39 samples.

Results

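Of the 39676 genes in the deposited table, 10 of the guanylate-binding protein (Gbp) family are described, namely Gbp2, Gbp2b, Gbp3, Gbp4, Gbp5, Gbp6, Gbp7, Gbp8, Gbp9 and Gbp10. They were taken by gene symbol and not by their values, and all 10 passed the low-count filter in each comparison. Gbp11, also in the table, is not one of the 10 and is given below with related genes. The samples were 39 AB1-HA tumours, a mouse mesothelioma cell line grown under the skin of BALB/c mice, each a bulk RNA library. There were 10 tumours from mice given PBS and 9 from mice given tretinoin (all-trans retinoic acid, 5 mg/kg intraperitoneally for 5 doses from day 4). Another 10 came from mice given immune checkpoint therapy (ICT, 100 µg each of anti-CTLA-4 and anti-PD-L1 antibody from day 7), and 10 from mice given tretinoin+ICT. These doses are those of the labels, and the study's text gives a different tretinoin dose for its comparison of tretinoin with PBS. Tumours were resected on day 9. In the tretinoin+ICT group the mouse's remaining tumour was followed, which made 6 tumours those of responders and 4 those of non-responders. Tumours are named below by the number in their titles, for example PBS tumour 14.

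Gbp proteins are large GTPases of the dynamin superfamily whose genes are induced strongly by interferon gamma, and also by type I interferons. They assemble on the membranes of intracellular bacteria and parasite vacuoles, help to break them open and promote inflammasome activation. In tumours their transcripts are commonly read as part of an interferon gamma response, and both tumour and host cells can make them. In the mouse the genes lie in a cluster on chromosome 3 and another on chromosome 5.

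On GRCm38 (GENCODE M21), 5 members lay on the plus strand of chromosome 3. Gbp5 occupied chr3:142493978-142522344, Gbp7 chr3:142530342-142550149, Gbp3 chr3:142560026-142573209, Gbp2b chr3:142594847-142619179 and Gbp2 chr3:142620602-142638008. The other 5 lay on the minus strand of chromosome 5. Gbp8 occupied chr5:105014150-105139540, Gbp9 chr5:105077630-105139539, Gbp4 chr5:105115767-105139586, Gbp10 chr5:105215699-105239533 and Gbp6 chr5:105270702-105293698. All are protein-coding genes. RefSeq promoters (GRCm38.p6, 250 bases before to 50 bases after the start) were at hand for the 5 chromosome 3 members. These 5 alone are shown because no promoter was at hand for the chromosome 5 members. All 10 genes moved together across tumours. Each of the 5 had a match to the core of the interferon-stimulated response element, GAAANNGAAA, searched on both strands. The stretch around the match is given 5′ to 3′ on the plus strand, with the match, here always on the opposite strand as TTTCNNTTTC, in capitals.
Gbp2, chr3:142620579-142620638: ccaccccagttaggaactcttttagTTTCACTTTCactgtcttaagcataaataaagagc
Gbp2b, chr3:142594685-142594744: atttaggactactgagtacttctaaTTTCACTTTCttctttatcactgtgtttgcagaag
Gbp3, chr3:142559974-142560039: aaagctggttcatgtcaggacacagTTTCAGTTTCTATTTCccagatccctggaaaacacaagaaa
Gbp5, chr3:142496744-142496803: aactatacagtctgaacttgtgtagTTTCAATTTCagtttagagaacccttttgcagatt
Gbp7, chr3:142530258-142530317: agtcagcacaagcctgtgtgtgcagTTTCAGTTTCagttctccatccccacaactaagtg

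Gbp3 held 2 overlapping matches, and the other 4 genes had 1 each. The matches began 59 bases before the start of Gbp2, 137 before that of Gbp2b, 45 and 39 before that of Gbp3, 165 before that of Gbp5 and 53 before that of Gbp7. A further start of Gbp3 had no match. Of 32851 promoters of the same length in the RefSeq table, 1131 (3.44%) held this motif. The gamma-activated site motif TTCNNNGAA, which reads the same on both strands, was found in the promoters of Gbp5 and Gbp7, against 8.30% of all promoters. The retinoic acid response element of direct repeat type, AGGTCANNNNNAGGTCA, searched on both strands, was found in none of the 6 member promoters and in 3 of all promoters. These matches describe letters and were not tested for binding.

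Total counts per tumour ranged from 14033046 to 37951183 (median 18548168), and no 2 libraries of a group agreed within sampling noise. Values below are CPM, the gene's share of a library's counts scaled to a common total with TMM factors. Calls came from edgeR's quasi-likelihood test and needed a p below 0.05 after Benjamini-Hochberg adjustment over all genes tested, with a log2 fold change of at least 1 in size. Intervals are approximate 95% intervals of the log2 fold change and are somewhat narrower than the quasi-likelihood test allows. Gbp3 in responders against non-responders, for example, had an interval of 0.053 to 0.948 at an unadjusted edgeR p of 0.0508. An interval that leaves out 0 is therefore not by itself a result of the test. The median log2 fold change of all genes lay within 0.0213 of 0 in every comparison. The deposited design counts each group in mice and describes a single resected tumour per mouse, so the tumours were taken as separate mice. The first digit of each title made 2 name series per treatment, none shared between treatments, so name series and treatment cannot be told apart. As a check on the tumour label, Pdpn was at 57.8 to 95.3 CPM and Wt1 at 0.253 to 5.46 CPM, while the mesothelial markers Upk3b and Krt19 did not pass the low-count filter in the comparisons of treatments.

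Reads of 100 bases could be placed on most members without ambiguity, with Gbp6 and Gbp10 as the exceptions. For Gbp2 and Gbp2b, 0% of the distinct 100-base stretches of their transcripts occurred in another gene. This share was 64.5% for Gbp6 and 73.5% for Gbp10. Gbp6 shared 36.3% of its stretches with Gbp10 and 59.0% with Gm43302, an annotated gene that overlaps both. Gbp7 shared 10.0%, nearly all with Gm43802, and the other members at most 4.39%. How such reads were counted is not stated, so the levels of Gbp6 and Gbp10 are uncertain.

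**Figure D1:**
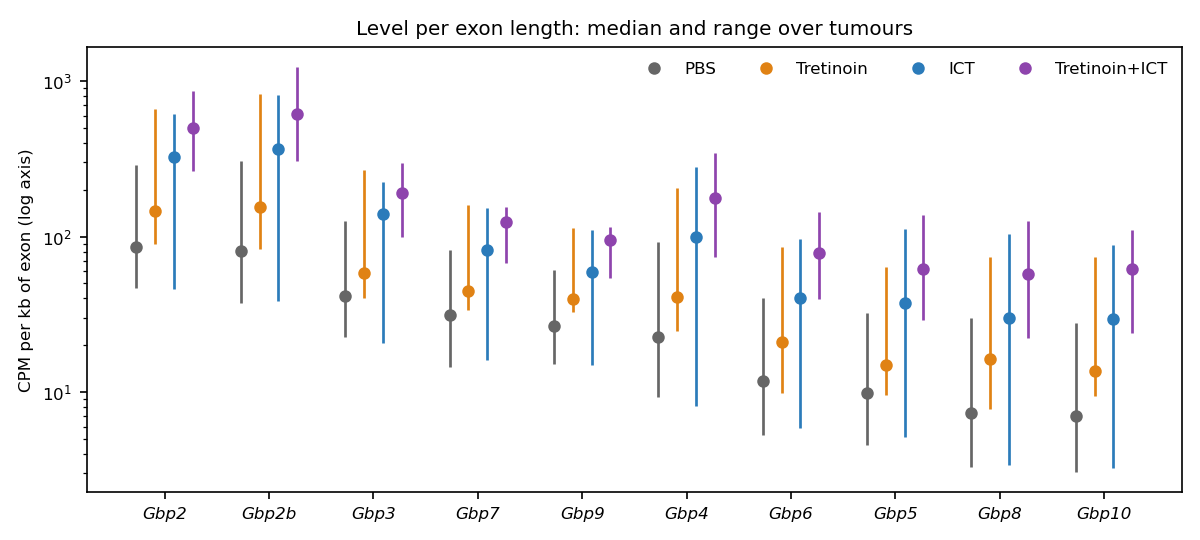
Median (point) and range (line) of CPM per kb of exon for each Gbp gene in the PBS (n = 10), tretinoin (n = 9), ICT (n = 10) and tretinoin+ICT (n = 10) tumours, on a log axis, with genes in the order of their PBS medians. Gbp2 and Gbp2b had the highest medians in each group, and the ranges of neighbouring genes overlapped.

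Compared per exon length, Gbp2 and Gbp2b were the most abundant members in all 4 groups. In PBS tumours the median level was 85.6 CPM per kb for Gbp2 and 81.2 for Gbp2b, which encodes the protein long known as mouse Gbp1. Gbp3 followed at 41.6, Gbp7 at 31.5, Gbp9 at 26.7 and Gbp4 at 22.8 CPM per kb. The lowest were Gbp6 at 11.8, Gbp5 at 9.82, Gbp8 at 7.29 and Gbp10 at 7.06 CPM per kb. Each gene's range over tumours overlapped that of its neighbour in this order. Within single PBS tumours the order was steadier, with Gbp2b above Gbp3 and Gbp3 above Gbp7 in 10 of 10, while Gbp2 was above Gbp2b in 8 and Gbp8 above Gbp10 in 7. In tretinoin+ICT tumours Gbp2b was above Gbp2 in 10 of 10, with medians of 614 and 499 CPM per kb.

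**Figure D2:**
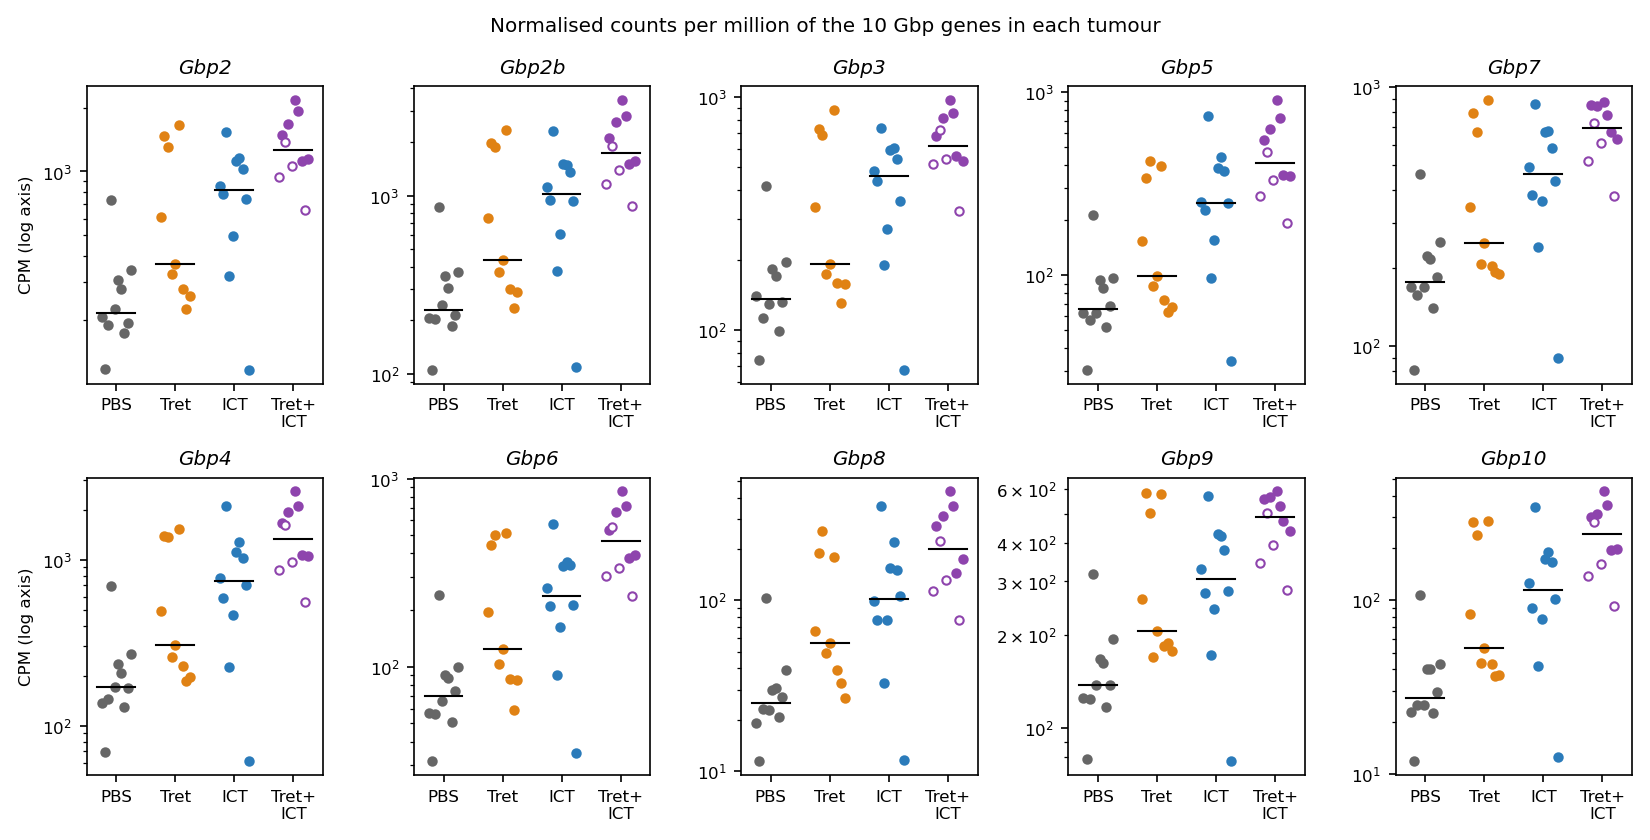
CPM of the 10 Gbp genes in each tumour on log axes, by treatment (Tret, tretinoin), with black lines at group medians and open circles for the 4 non-responders. For each gene 3 tretinoin tumours lie above all PBS tumours, and 9 or 10 tretinoin+ICT tumours do.

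Tretinoin alone was compared with PBS to ask whether the drug changed the tumour's transcript levels. Of the 10 Gbp genes, 8 were upregulated, with log2 fold changes from 1.03 for Gbp9 to 1.75 for Gbp10, and 10 of 10 had the higher mean. Among all 14340 genes tested, 1.49% were called higher, and 11.5% passed without the fold minimum, under which 8 members passed as well. Gbp5 and Gbp7, which help to assemble inflammasomes and the phagocyte oxidase, had log2 fold changes of 1.204 and 1.02 and did not pass (adjusted p = 0.0618 and 0.0574). The study itself listed both among the differentially expressed genes of pathways enriched after tretinoin. It used DESeq2, whereas the calls here came from edgeR. Under the other processing settings, members gained a call in 5 cases, and only Gbp5 and Gbp7 had none to begin with. The separate DESeq2 count for this comparison is not reported here. The median over the members was 1.43, against 0.0079 for all genes.

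The tretinoin tumours were not alike. Gbp2, which is recruited to parasite vacuoles, was at 117 CPM in the lowest PBS tumour, 215 at the median and 731 in the highest, tumour 14, with the next highest at 344 CPM. After tretinoin it was at 226 CPM in the lowest tumour, 365 at the median and 1655 in the highest. Tretinoin tumours 71, 32 and 33 stood at 1655, 1467 and 1299 CPM, tumour 31 at 608 and the other 5 between 226 and 365 CPM. The 3 high tumours exceeded every PBS tumour and the remaining 6 lay within the PBS range. The log2 fold change of Gbp2 was 1.39 (standard error 0.45, interval 0.52 to 2.26, adjusted p = 0.0353 from edgeR).

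The same 3 tretinoin tumours were above every PBS tumour for all 10 genes. Gbp10, a chromosome 5 member, ranged from 11.8 to 108 CPM in PBS tumours (median 27.3) and from 36.5 to 284 CPM after tretinoin (median 53.3). Its log2 fold change was 1.75 (standard error 0.51, adjusted p = 0.0239 from edgeR). Gbp2b ranged from 105 to 868 CPM in PBS tumours (median 229) and from 234 to 2324 after tretinoin (median 435). Its means were 306 and 949 CPM, farther apart than its medians. In Gbp9 the ranges were 79.0 to 316 CPM (median 138) and 170 to 584 CPM (median 207). At least 8 of 9 tretinoin tumours exceeded the PBS median for each member.

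**Figure D3:**
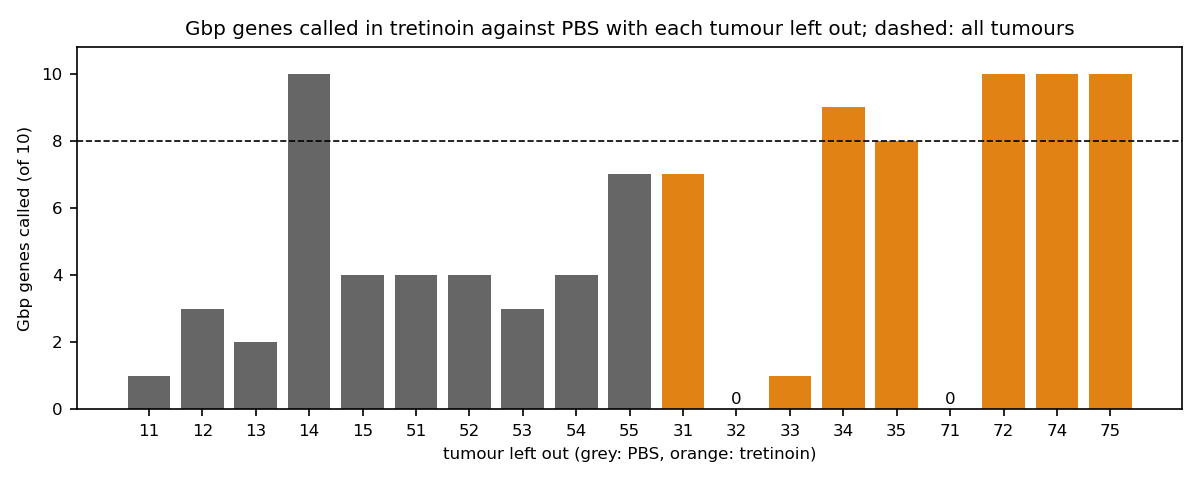
Number of Gbp genes called higher after tretinoin than after PBS (bars, of 10) when the tumour on the x axis was left out, with the dashed line at the 8 called with all 19 tumours. The count fell to 0 without tretinoin tumour 32 or 71.

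The calls rested on single tumours. Without tretinoin tumour 32 or 71 no member was called, and without tumour 33 only Gbp10 was. Leaving out a PBS tumour gave 1 call without tumour 11, 2 without 13, 3 without 12 or 53, 4 without 15, 51, 52 or 54 and 7 without 55. Without tretinoin tumour 31, 35 or 34 the count was 7, 8 or 9. All 10 were called without PBS tumour 14 or tretinoin tumour 72, 74 or 75. The calls over all genes moved as well, since 213 genes were called higher with all tumours, 175 without tretinoin tumour 32, 175 without 71, 131 without 33 and 267 without PBS tumour 14. Gbp10 kept its call in 17 of the 19 fits and Gbp5 gained one in 4. The log2 fold changes stayed between 0.80 and 2.09 throughout. Without a low-count filter 1 member was called. In the 4 pairs of name series, the mean log2 CPM was higher after tretinoin in 40 of 40 differences, by 0.45 to 1.90. These differences reuse the same series means for 10 genes that moved together, so they are not 40 separate results.

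ICT alone raised the family as a whole. All 10 genes were called higher than in PBS tumours, with log2 fold changes from 1.02 for Gbp9 to 1.97 for Gbp8 (edgeR adjusted p = 0.00739 to 0.0165), when 2.28% of 14155 genes were called higher and 14.1% passed without the fold minimum. Between 5 and 7 of the 10 ICT tumours exceeded all PBS tumours, and 9 of 10 exceeded the PBS median for each gene. This comparison and the preceding one share the PBS tumours.

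Gbp5 had the smallest adjusted p. It was at 30.4 CPM in the lowest PBS tumour, 65.1 at the median and 215 in the highest, and at 34.02, 250 and 740 CPM in ICT tumours. The groups overlapped at both ends, since ICT tumour 85 was at 34.02 CPM and PBS tumour 14 at 215 CPM. Its log2 fold change was 1.84 (standard error 0.43, interval 1.002 to 2.68, edgeR adjusted p = 0.00739).

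Gbp4 had the largest ratio of highest to lowest ICT tumour, from 60.9 CPM in tumour 85 to 2113 CPM in tumour 63 (median 741). In PBS tumours it was at 69.5 to 692 CPM (median 171), and its log2 fold change was 1.91 (standard error 0.49, edgeR adjusted p = 0.0116). Tumour 63 was highest and tumour 85 lowest of the ICT group for all 10 members. With any 1 tumour left out, 9 or 10 members were called, Gbp9 being the gene that fell below the fold minimum.

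**Figure D4:**
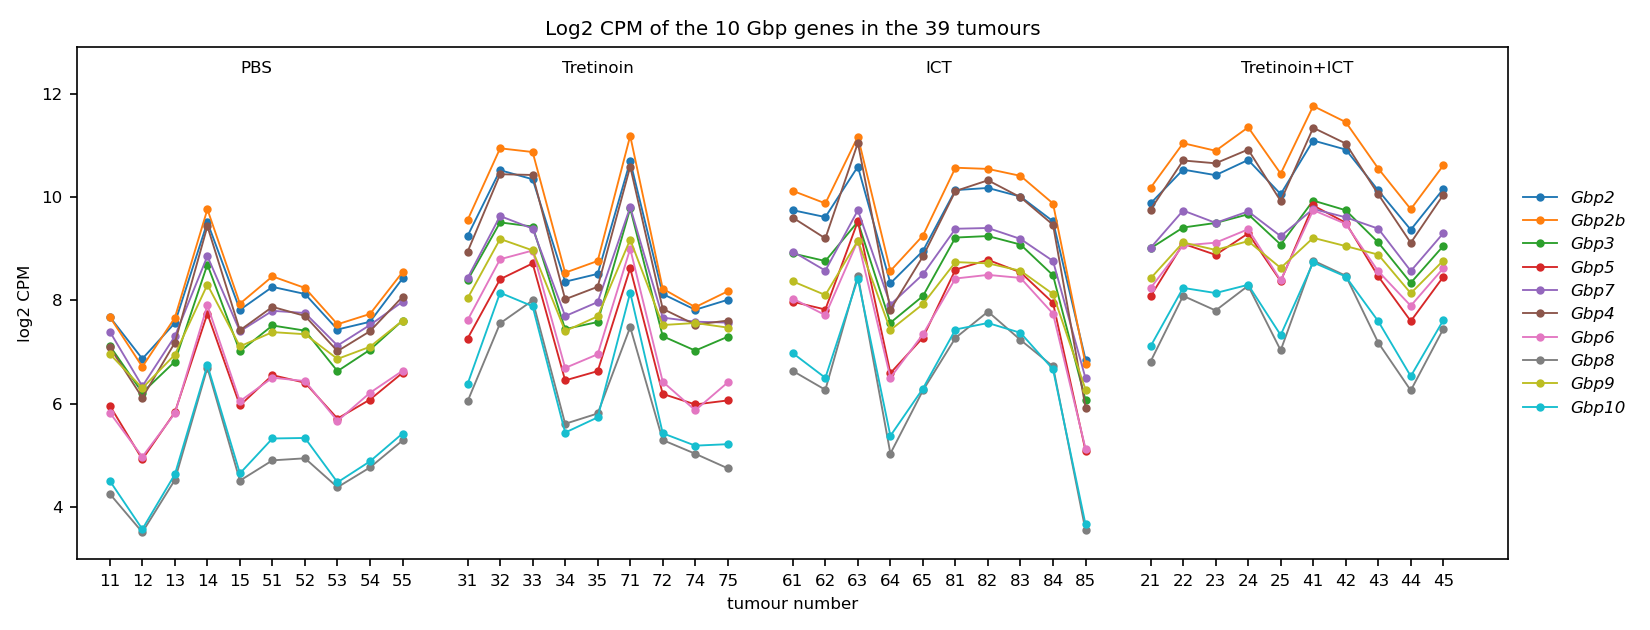
Log2 CPM of the 10 Gbp genes (coloured lines) in the 39 tumours, grouped by treatment and ordered by tumour number. The lines run nearly parallel, with PBS tumour 14, tretinoin tumours 32, 33 and 71 and ICT tumour 63 high and ICT tumour 85 low for every gene.

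Tretinoin+ICT tumours had the highest group median of all 10 genes, although the highest single Gbp7 value, 895 CPM, was that of tretinoin tumour 71. Against PBS, 10 of 10 members were called, with log2 fold changes from 1.59 for Gbp9 to 2.78 for Gbp8 and edgeR adjusted p from 4.3e-06 to 1.68e-05. Here 5.45% of 14265 genes were called higher, and 25.7% passed without the fold minimum. All 10 were also called with each of the 20 tumours left out in turn. Gbp2b was at 870.0 CPM in the lowest tretinoin+ICT tumour, 1733 at the median and 3465 in the highest, against 105, 229 and 868 CPM after PBS. The lowest tretinoin+ICT tumour, 44, was thus level with the highest PBS tumour, 14. For the other 9 genes, 9 of 10 tretinoin+ICT tumours were above all PBS tumours. The log2 fold change of Gbp2b was 2.67 (standard error 0.34, interval 2.002 to 3.34).

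**Figure D5:**
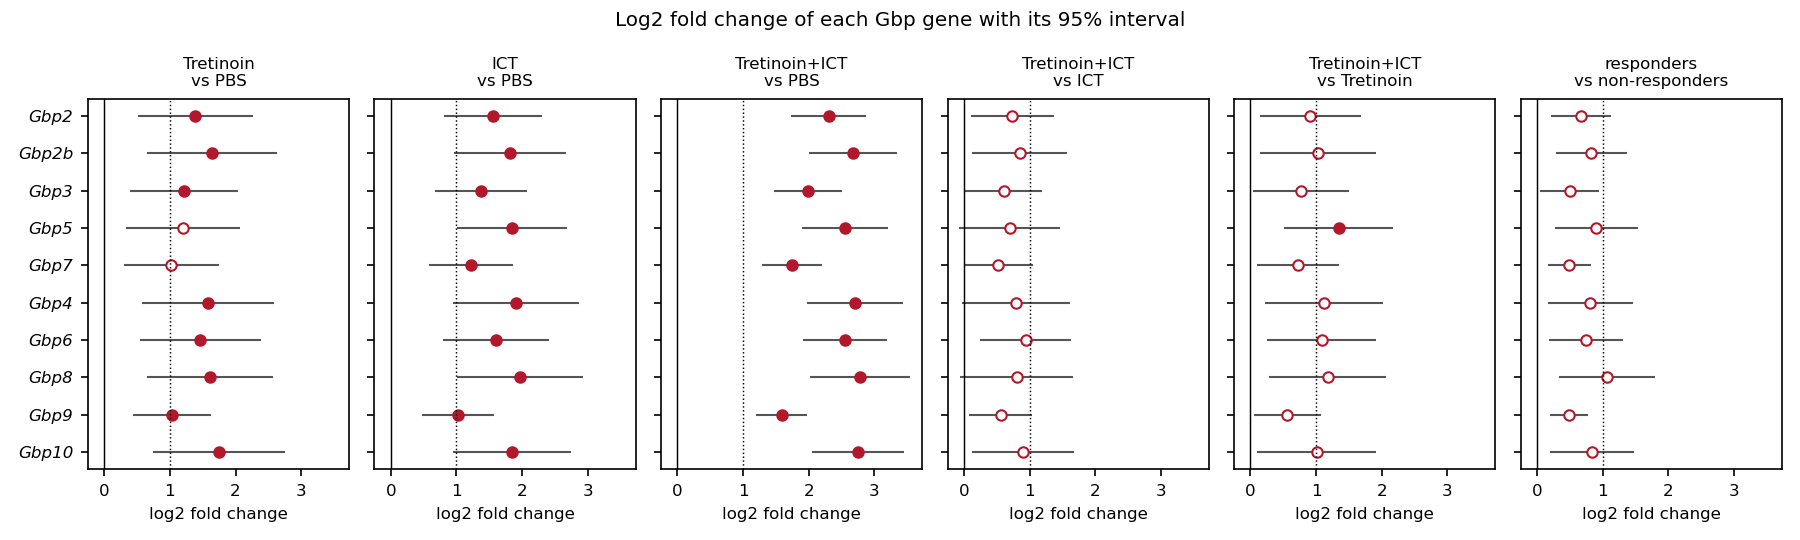
Log2 fold change (points) and approximate 95% interval (lines) of each Gbp gene in 6 comparisons, with filled points for genes called at an adjusted p below 0.05 and a log2 fold change of at least 1, and the dotted line at 1. All points lie above 0, and the intervals are shortest for Gbp7 and Gbp9.

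Tretinoin+ICT was also set against each treatment alone, to ask what the second treatment added. Against ICT alone, 0 of 10 members passed, with or without the fold minimum, at log2 fold changes from 0.52 for Gbp7 to 0.94 for Gbp6 (edgeR adjusted p = 0.182 to 0.336). Unadjusted p was below 0.05 for 5 members, but such values were common over all genes. The largest of the 5, that of Gbp10 (edgeR p = 0.0355), stood at rank 2036 of the 14202 genes by p. DESeq2 called 0. Among 14202 genes, 0.366% were called higher and 1.57% passed. For Gbp6 the interval was 0.25 to 1.63 and for Gbp7 it was -0.005 to 1.05, so a difference of 1 lay inside both. Of the 10 tretinoin+ICT tumours, 9 were above the ICT median for each gene. None was called with any single tumour left out.

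Against tretinoin alone, Gbp5 was the 1 member called, higher by log2 1.34 with a standard error of 0.42 (edgeR adjusted p = 0.0319). It was at 63.4 CPM in the lowest tretinoin tumour, 99.2 at the median and 420 in the highest, and at 194, 413 and 914 CPM after both treatments. The groups overlapped, with 5 of 10 tretinoin+ICT tumours above all tretinoin tumours. The other 9 members had log2 fold changes from 0.56 to 1.18 and adjusted p from 0.0715 to 0.136. Of 14393 genes, 1.87% were called higher and 12.3% passed. This count too depended on single tumours. It was 6 without tretinoin tumour 71, 4 without 33 and 2 without tretinoin+ICT tumour 44. It was 0 without tretinoin tumour 31, 34, 35, 72, 74 or 75 or tretinoin+ICT tumour 24, 41 or 42. DESeq2 called 2 members, and without a low-count filter none was called.

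The interaction of tretinoin with ICT, fitted over all 39 tumours, asks whether the tretinoin difference was the same with and without ICT. Its log2 values were negative for all 10 members, from -0.84 for Gbp10 to -0.46 for Gbp9, and none passed (edgeR adjusted p = 0.713 to 0.833, 0 at an unadjusted p below 0.05, and 0 by DESeq2). The share of all genes that passed in either direction was 0.307%. For Gbp2 the interval ran from -1.73 to 0.43. A smaller effect of tretinoin in the presence of ICT was therefore not shown for the family.

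Within the tretinoin+ICT group, responders and non-responders were compared. All 10 genes had the higher mean in responders, by log2 0.48 for Gbp9 to 1.07 for Gbp8, and 0 of 10 passed (edgeR adjusted p = 0.100 to 0.222). No gene in the table passed in this test, 0% of 14604 with or without the fold minimum. The study itself listed Gbp5 and Gbp8 among genes upregulated in responders. Unadjusted p was below 0.05 for 9 members, but such values were common over all genes. Gbp3, the member above 0.05 (edgeR p = 0.0508), stood at rank 3335 of the 14604 genes by p. DESeq2 called 0 of the 10. The count remained 0 with each tumour left out and with name series as a block.

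Gbp8 had the largest difference. It was at 113, 224, 131 and 76.6 CPM in the non-responder tumours 21, 23, 25 and 44. In responders it was at 145 CPM in the lowest, 292 at the median and 437 in the highest. Of the 6 responder tumours, 4 were above all non-responders, and non-responder tumour 23 lay among the responders. The interval of its log2 difference was 0.34 to 1.80 (edgeR adjusted p = 0.133).

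Gbp9 varied least within both response groups. Its values were 344, 504, 396 and 282 CPM in non-responder tumours 21, 23, 25 and 44, and 437, 544 and 592 CPM at the lowest, median and highest responder. Its log2 difference was 0.48 (standard error 0.15, edgeR adjusted p = 0.100). Tumour 44 was lowest and tumour 41, a responder, highest of the tretinoin+ICT group for all 10 members. Gbp2 was at 940, 1372, 1064 and 660.0 CPM in the same non-responders and ranged from 1118 to 2183 CPM in responders.

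The members also varied between tumours of a group. The standard deviation of log2 CPM had a median over the 10 genes of 0.75 in PBS, 1.18 in tretinoin, 1.21 in ICT and 0.61 in tretinoin+ICT tumours. Without PBS tumour 14 the PBS value was 0.51, below that of tretinoin+ICT, and without ICT tumour 85 the ICT value was 0.77. Leaving out any single tumour gave 1.10 to 1.26 for tretinoin and 0.52 to 0.64 for tretinoin+ICT. These spreads were not tested against each other.

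The members differed little in pattern and more in size. Over the 39 tumours, the 45 pairs of members correlated at r between 0.974 and 0.999 in log2 CPM, and between 0.953 and 0.998 after group means were removed. All share libraries, depth and, in part, reads. Gbp7 and Gbp9 took the last 2 places in the order of log2 fold changes in all 6 comparisons of groups. The median log2 fold change against PBS was 1.22 on chromosome 3 and 1.59 on chromosome 5 after tretinoin, 1.56 and 1.85 after ICT, and 2.30 and 2.70 after both. These comparisons share the PBS tumours, and the difference between clusters was not tested.

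Outside the family, the genes most like it were sought by the Pearson r of log2 CPM with the mean of the scaled members over the 39 tumours. Among the nearest were Gm12250 (r = 0.996, rho = 0.991), Tgtp1, Tgtp2, Apol6, Igtp, Tap1 and Gm4951 (r = 0.992). With group means removed these had r of 0.986 to 0.993. Of these, Igtp, Tgtp1, Tgtp2, Gm12250 and Gm4951 are immunity-related GTPases, and Tap1 moves peptides for class I presentation. Such likeness was not rare, since 323 of 14977 genes had r above 0.9, while the median over all genes was -0.05.

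Genes of the interferon pathway were described from lists. Of 15 interferon signalling genes tested, 7 passed higher after tretinoin (11.5% of all genes did), 13 after ICT (14.1%) and 15 after both (25.7%), each against PBS. Their median log2 fold changes were 0.41, 0.47 and 0.67. Batf2, a transcription factor of this response, changed most in each, by 1.26, 1.44 and 2.37. Ifngr2 had the smallest value after tretinoin, -0.02, and Jak1 after ICT, 0.15 (adjusted p = 0.0527 from edgeR). Against ICT alone 1 of the 15 passed after tretinoin+ICT (1.57% of all genes), and against tretinoin alone 8 did (12.3%). Jak2, Stat2, Socs1 and Ifng were not analysed here.

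Immunity-related GTPases, the smaller interferon-induced relatives that act on the same vacuoles, passed higher for 6 of 12 after tretinoin (11.5% of all genes did). The count was 9 of 12 after ICT (14.1%) and 9 of 12 after both (25.7%), each against PBS. Gm12250 changed most, with log2 fold changes of 1.46, 1.76 and 2.62, while Irgq was at 0.003 after tretinoin and 0.09 after ICT and 9930111J21Rik1 at -0.08 after both. Against tretinoin alone 6 of 12 passed (12.3% of all genes), and against ICT 0 of 12 (1.57%). Of 5 other dynamin-like genes, 2, 3 and 4 passed against PBS after tretinoin, ICT and both, and 0 against either treatment alone. Gvin1 and Gm4070, both among the 5, had nearly the same CPM in every tumour (238.9 and 244.6 in PBS tumour 11). They are therefore not separate results. The largest change of the 5 was that of Gbp11, at 1.92, 2.11 and 3.17, and the smallest that of Mx2, an antiviral GTPase, at -0.03, 0.17 and 0.24.

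Of 14 inflammasome and defence genes linked to Gbp proteins, 2 passed higher after tretinoin (11.5% of all genes did), 9 after ICT (14.1%) and 11 after both (25.7%), each against PBS. In tretinoin+ICT 7 passed against tretinoin (12.3%) and 0 against ICT (1.57%). Ncf1, an oxidase subunit, had the largest change after tretinoin (log2 0.81, edgeR adjusted p = 0.000203) and Il18 the smallest (-0.25). Nos2, which encodes inducible nitric oxide synthase, changed by 3.01 after ICT and 3.53 after both, and Aim2, a DNA sensor, stood at -0.08 and -0.02. None of the genes in these 4 lists passed in the comparison of responders.

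Markers of other cell types moved with some of these comparisons. In bulk tumours, fewer cells of a type and less RNA per cell cannot be told apart. Macrophage markers passed higher for 2 of 5 after tretinoin (11.5% of all genes did), and for 5 of 5 after ICT (14.1%) and after both (25.7%). Their summed level was 1924 to 2921 CPM in PBS, 2097 to 4255 in tretinoin, 2073 to 4354 in ICT and 2755 to 4000 CPM in tretinoin+ICT tumours. In responders the macrophage sum was 3466 to 4000 CPM and in non-responders 2755 to 3274 CPM. Of the 5 macrophage markers, 0 passed in that comparison. Dendritic cell sums were 109.8 to 246.7 CPM in responders and 85.4 to 110.5 CPM in non-responders. NK cell sums were 52.6 to 100.9 CPM in responders and 38.7 to 61.2 CPM in non-responders. Neutrophil markers passed for 0 of 4 after tretinoin and 4 of 4 after ICT and both. Their sum was 45.8 to 110 CPM in PBS, 56.2 to 163 in tretinoin, 67.5 to 267 in ICT and 101 to 262 CPM in tretinoin+ICT tumours.

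T cell markers passed for 0 of 5 in each of these. Their sum was 34.6 to 72.2 CPM in PBS, 28.7 to 121 in tretinoin, 29.0 to 127 in ICT and 32.99 to 82.6 CPM in tretinoin+ICT tumours. NK cell markers passed for 1, 2 and 4 of 4 against PBS after tretinoin, ICT and both, where 11.5%, 14.1% and 25.7% of all genes passed higher. These shares apply to the dendritic cell counts below as well. NK cell sums were 24.9 to 58.6 CPM in PBS, 22.3 to 72.3 in tretinoin, 21.2 to 126 in ICT and 38.7 to 101 CPM after both. Dendritic cell markers passed for 1, 2 and 3 of 4, with sums of 41.3 to 97.3 CPM in PBS, 55.7 to 172 in tretinoin, 69.7 to 230.4 in ICT and 85.4 to 247 CPM after both. Among them Clec9a, a marker of cross-presenting dendritic cells, rose by log2 1.199 after tretinoin and 1.69 after both, and Itgax by 1.18 after ICT. Xcr1, Itgax and Flt3 did not pass after tretinoin, at log2 0.32, 0.60 and -0.12. Of 4 endothelial markers, 1 passed higher after tretinoin, 2 passed lower after ICT, and 1 higher and 2 lower after both. Over all genes, 1645 of 14340 passed higher after tretinoin and 1012 of 14155 lower after ICT. After both, 3673 of 14265 passed higher and 3501 lower. The endothelial sums were 212.6 to 259.8 CPM in PBS, 238.6 to 340.1 in tretinoin, 212.6 to 248.9 in ICT and 228.8 to 287.6 CPM after both. No marker tested was at 0 in all tumours of a group. The part of these cells in the Gbp results was not tested.

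The leukocyte gene Ptprc followed the family across tumours, at r = 0.888 (rho = 0.924) and 0.883 with group means removed. It was highest of its group in PBS tumour 14 (404 CPM) and tretinoin+ICT tumour 41 (586 CPM), and lowest in ICT tumour 85 (160.3 CPM) and tretinoin+ICT tumour 44 (260.5 CPM), each at the same end of its group as for the Gbp genes. It was also highest of the ICT group in tumour 63 (769 CPM). In the tretinoin group the ends differed, with Ptprc highest in tumour 33 (415 CPM) and lowest in 75 (181 CPM), where tumour 71 was highest and 74 lowest for 7 of the 10 members. The log2 fold change of Ptprc was 0.14 after tretinoin and 0.57 after ICT, neither past the test (edgeR adjusted p = 0.562 and 0.0723). After both treatments it was 0.72 against PBS and 0.58 against tretinoin, which passed (edgeR adjusted p = 0.000656 and 0.0187), and 0.15 against ICT, which did not (adjusted p = 0.729). The T cell genes Cd3d, Cd3e, Cd3g, Cd4 and Cd8a had r of 0.360 to 0.604, and 0.449 to 0.727 with group means removed. Macrophage markers had r of 0.420 to 0.886, and -0.002 to 0.774 with group means removed. NK cell markers had r of 0.723 to 0.888, and 0.670 to 0.817 with group means removed. For dendritic cell markers the ranges were 0.069 to 0.807 and 0.027 to 0.673, and for neutrophil markers 0.694 to 0.835 and 0.626 to 0.744. Of the fibroblast markers, Col3a1 had r of -0.883, Col1a1 -0.554 and Pdgfra -0.361. With group means removed these were -0.872, -0.697 and -0.262.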

How the data were processed

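The authors sequenced bulk RNA of 39 AB1-HA tumours as single-end NovaSeq reads, aligned them with HISAT2 (2.0.4 in the submitters' processing notes) to a genome they name mm11 and deposited raw counts per gene from SummariseOverlaps, without normalization. Strand setting and multiply aligned reads are not given in the sources used here.

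The counts of each pair of groups were fitted over the whole table with edgeR 4.0.16 (R 4.3.3; TMM, filterByExpr, robust quasi-likelihood test), at the thresholds of the study's methods. Standard errors were derived from the log2 fold change and the F statistic, and intervals use 1.96 standard errors. DESeq2 1.42.0 was an alternative. Log2 CPM used a prior count of 2. The fits were tested on simulated data. All 10 members matched GENCODE M21 with their version, and levels per kb use merged exon length. Named were the 10 members, the 8 genes most like them, and the extremes of the lists. Ptprc, Col3a1, Col1a1, Pdgfra, Gvin1, Gm4070, Ncf1, Pdpn, Wt1, Xcr1, Itgax and the T cell genes come from the lists. A gene that this rule would name is not reported here. The members and lists were chosen with earlier results of these data known. Leaving out each tumour, in the comparisons of treatments and in the spread within groups, was added after the data were seen. Ifng was not analysed here, so the planned relation of the members to it was not run.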

Additional observations from a re-analysis of the deposited data

How the results depend on the processing

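Depth did not limit the members, all of which passed the low-count filter, and the spread between tumours set the precision. With each tumour left out in turn, the count of members called ranged from 0 to 10 for tretinoin against PBS, from 9 to 10 for ICT against PBS and from 0 to 6 for tretinoin+ICT against tretinoin. It was 10 throughout for tretinoin+ICT against PBS, and 0 throughout against ICT and for responders against non-responders. Without a low-count filter, 1 member was called for tretinoin against PBS and 0 for tretinoin+ICT against tretinoin, for reasons not tested. DESeq2 called 2 for tretinoin+ICT against tretinoin, where the cause was not tested. Without tretinoin tumour 33 that count was 4, and without ICT tumours 63 and 82 the count against ICT was 3. Those 2 were among the 3 highest of the ICT group for every member, so leaving them out widens that difference by construction. Over the alternatives planned at the outset, log2 fold changes of single members kept direction and side of the threshold in 58 cases, lost the call in 7 and gained it in 5 for tretinoin against PBS, and kept both in 69 and lost it in 1 for ICT against PBS. For tretinoin+ICT they kept both in 70 cases against PBS, in 67 with 3 gained against ICT, and in 65 with 1 lost and 4 gained against tretinoin. None reversed. For responders and the interaction no member passed in any of these, which says nothing about stability. No paired analysis was possible because the tumour numbers are not shared between groups, and name series as a block in responders against non-responders changed no call. The relation to Ifng and its alternative scale were not run.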
